A study of Mus musculus with 12 samples.

Results

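The genes described here are the Wnt ligands, their receptors and co-receptors, and the secreted or membrane proteins that tune them. They were chosen by symbol alone, as the Wnt, Fzd, Rspo, Dkk and Sfrp families with Lrp5, Lrp6, Sost, Sostdc1, Wif1, Lgr4 to Lgr6, Znrf3, Rnf43, Axin2 and Notum. The rule found 53 of the 56691 genes of the count table, comprising 19 ligands, 10 Frizzled receptors, 2 co-receptors and 4 R-spondins. The others were 5 R-spondin receptors or ubiquitin ligases, 12 inhibitors and 1 feedback target. Of the 53 genes, 27 had enough counts to be tested, and these held 99.6% of the counts of all 53. Most of those counts were of Wif1 alone (100118). Of the 19 ligands 13 were not tested, and of the 12 inhibitors 6.

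The cells were MC3T3-E1, a wild-type mouse pre-osteoblast line from calvarial bone. All groups were kept for 28 days in osteogenic medium that held 0.1 µM dexamethasone, ascorbic acid at 50 µg/ml and 10 mM of the phosphate donor beta-glycerophosphate (BGP), so the controls carried these agents too. From day 27, for 24 h, cells received nothing further (control), 100 µM of 25(OH)D (25-hydroxyvitamin D, from which cells make the active hormone), 25(OH)D with a further 4 mM BGP, or 25(OH)D with 100 µM ZK191784, a synthetic ligand of the vitamin D receptor. The doses are as labelled, and nothing in the files bears on the 25(OH)D unit. Each of the 4 groups had 3 libraries of QuantSeq, a method that reads the 3' end of transcripts. No group received ZK191784 or the further BGP without 25(OH)D. Whether replicates came from separate cultures is not labelled. The p-values therefore cover the spread between libraries, which may be technical.

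In canonical Wnt signalling a lipid-modified ligand binds a Frizzled receptor and the co-receptor LRP5 or LRP6. This stops a destruction complex from degrading beta-catenin, which then acts with TCF and LEF factors on target genes. R-spondins strengthen the signal by removing the ligases ZNRF3 and RNF43, which clear Frizzled from the cell surface. Sclerostin, DKK1, WIF1, secreted Frizzled-related proteins and NOTUM weaken it at the level of ligand or co-receptor. In bone the pathway promotes osteoblast formation, and osteocytes restrain it by secreting sclerostin.

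Library totals ran from 3318723 to 5170980 counts. Libraries also differed within groups in a log2 ratio, here called the library ratio. It set ribosomal protein gene counts against counts of ribosomal protein pseudogenes and predicted Gm-numbered genes. It ran from −1.78 to −0.44, with group means of −1.34 in control, −1.11 with 25(OH)D, −1.07 with BGP and −1.16 with ZK191784. The highest libraries were control replicate 3, 25(OH)D replicate 1, BGP replicate 2 and ZK191784 replicate 1. All 8 osteoblast markers of a fixed list had counts. Their summed level was 45682 to 75702 CPM (TMM-scaled counts relative to library size) in control, 7017 to 13371 with 25(OH)D, 7154 to 12223 with BGP and 23971 to 38391 with ZK191784. Col1a1, Col1a2 and Ibsp made up most of that sum (means of 27006, 15323 and 13675 CPM in control and 5990.1, 3856 and 92.7 with 25(OH)D), whereas Alpl had a mean of 25.2 CPM in control and 48.1 with 25(OH)D. Osteocyte markers (6 genes) summed to 111 to 150.1 CPM in control and 52.0 to 66.1 with 25(OH)D, and adipocyte markers (6 genes) to 6.74 to 9.28 and 1.58 to 5.08 CPM. Pdpn (99.6 and 54.1 CPM) and Fabp4 (5.86 and 0.882 CPM) held most of the difference in these sums. Phex (19.4 and 2.41), Mepe (4.78 and 0.176) and most other members of these lists also had lower means with 25(OH)D. Dmp1 (2.52 and 3.07), Fgf23 (0.0703 and 0.594) and Adipoq (0.0799 and 0.704) had higher means. Fgf23 and Adipoq had only 28 and 21 counts over all libraries. Chondrocyte, macrophage, endothelial and muscle marker sums overlapped between these groups. Sox9 made up most of the chondrocyte sum (122 and 109 CPM), and Col2a1 of the same list was at 31.7 CPM in control, 1.21 with 25(OH)D and 19.9 with ZK191784. Cdh5 (endothelial) and Myog (muscle) had 0 counts in all libraries. In the macrophage or blood cell list, Ptprc averaged 242 CPM in control and 182 CPM with 25(OH)D. Cd68 (47.8 and 36.5 CPM), Lyz2 (13.3 and 17.0), Adgre1 (2.12 and 0.603) and Csf1r (1.91 and 1.90) of that list stood far below Ptprc. The part of these shifts in the results below was not tested, and in bulk RNA fewer cells of a type and less RNA per cell cannot be told apart.

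The first comparison asked which Wnt genes 25(OH)D changed. Notum, Rspo3, Wnt10a, Wnt6 and Wif1 rose, and Rspo2 and Wnt4 fell. These 7 were called among the 27 tested, or 25.9%, with 8.68% of all 14394 tested genes called in the same comparison (4.76% higher and 3.93% lower). Called here means an adjusted p under 0.05 in edgeR's quasi-likelihood test, Benjamini-Hochberg adjusted over all tested genes. The changes went in both directions within the ligands and within the R-spondins. The median log2 fold change over the 27 was −0.33, and over all tested genes −0.05. In 8 of the 27 every 25(OH)D library was above every control library and in 5 every one was below, against 11.1% and 10.8% of all tested genes.

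**Figure D1:**
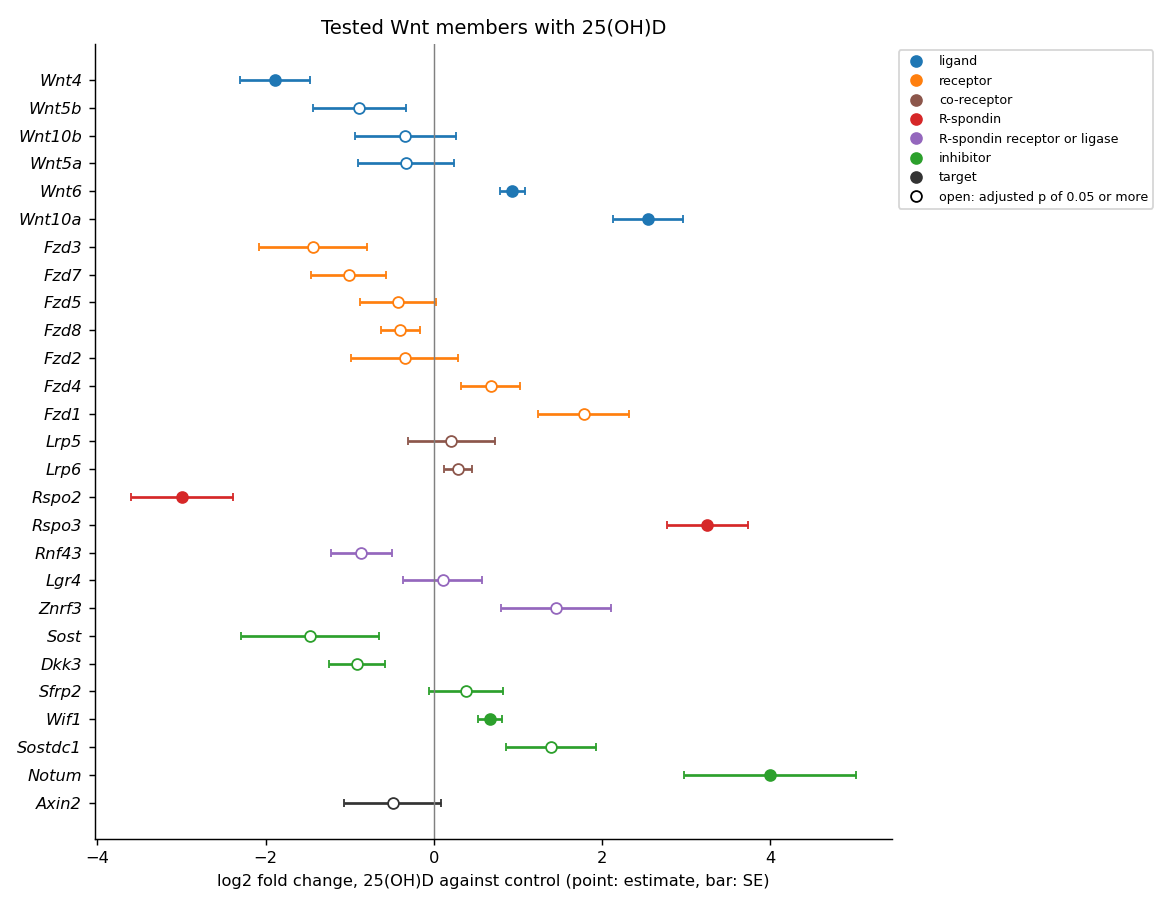
Log2 fold change of the 27 tested genes between 25(OH)D and control (x axis; points are estimates, bars are SE, colours are roles, filled points were called). The called genes run from Rspo2 at −2.99 to Notum at 4.00, and none of the 7 Frizzled receptors is filled.

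Among the ligands, Wnt6 and Wnt10a held most counts. The genes are neighbours in the RefSeq annotation, with no other protein-coding gene between them. Wnt10a, a ligand that favours osteoblast over adipocyte fate, stood at 18.2, 34.4 and 46.6 CPM in control replicates 1 to 3 and at 263, 199 and 119 CPM with 25(OH)D. The groups did not overlap, and the lowest 25(OH)D library was above the highest control. Wnt10a rose 5.85-fold, a log2 fold change of 2.55 ± 0.42 (SE; edgeR adjusted p = 0.00177). Wnt6 was at 96.2, 81.6 and 103 CPM in control and at 189, 198 and 150.3 CPM with 25(OH)D. Its rise was smaller and its replicates lay closer together, with a log2 fold change of 0.94 ± 0.15, or 1.91-fold (edgeR adjusted p = 0.00144).

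Wnt4, which signals through both beta-catenin and non-canonical routes, went the other way. It was at 11.5, 13.9 and 20.9 CPM in control and at 3.74, 5.54 and 3.17 CPM with 25(OH)D, again without overlap. It fell by 1.88 ± 0.42 on the log2 scale, or 3.69-fold (edgeR adjusted p = 0.0122). Without 25(OH)D replicate 1 the adjusted p was 0.0542. Wnt5a, Wnt5b and Wnt10b, the other 3 ligands tested, were not called, with estimates from −0.88 to −0.33.

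The 19 ligands together summed to 162 ± 30.3 CPM in control (mean ± SD, n = 3 libraries in this and the other groups) and to 392 ± 99.5 CPM with 25(OH)D. On the count scale, Wnt6 and Wnt10a made up 78.4 ± 2.06% of ligand counts in control and 95.2 ± 0.731% with 25(OH)D. That rise was in Wnt10a, whose own share was 19.9 ± 6.19% and 48.4 ± 6.63%. The share of Wnt6 was lower on average with 25(OH)D, at 58.4 ± 7.90% and 46.9 ± 6.78%. These shares compare 3' tag counts, which were not divided by transcript length. With 3 libraries against 3 an exact permutation test cannot give a p under 0.05, and none is given.

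The 250 bases upstream of the annotated starts of Wnt6 and Wnt4 are shown because these ligands changed in opposite directions. They are from RefSeq on GRCm38.p6, both on the plus strand, at chr1:74771642-74771891 and chr4:137277385-137277634. The count table was made on mm39, so these positions are not on the build of the data. Capitals mark CG dinucleotides.
Wnt6: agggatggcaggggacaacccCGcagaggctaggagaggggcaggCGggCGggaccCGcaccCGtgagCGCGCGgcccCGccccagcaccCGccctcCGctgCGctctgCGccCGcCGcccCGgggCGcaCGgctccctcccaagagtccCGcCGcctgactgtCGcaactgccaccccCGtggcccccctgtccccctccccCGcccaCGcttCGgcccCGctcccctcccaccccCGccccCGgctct
Wnt4: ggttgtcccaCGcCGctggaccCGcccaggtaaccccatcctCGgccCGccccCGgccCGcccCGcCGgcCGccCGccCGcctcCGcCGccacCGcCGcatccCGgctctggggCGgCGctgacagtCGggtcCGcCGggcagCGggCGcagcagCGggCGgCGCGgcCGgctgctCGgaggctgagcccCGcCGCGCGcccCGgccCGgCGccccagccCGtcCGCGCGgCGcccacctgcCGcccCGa
Both windows are rich in G and C (79.6% and 85.2%), with 28 CG dinucleotides in Wnt6 and 44 in Wnt4. Neither holds a direct repeat of the vitamin D receptor half-site (AGGTCA or GGTTCA or AGTTCA or GGGTCA, any 2 of them in the same orientation with 3 bases between) on either strand. Such a repeat occurs in 13 of 32851 RefSeq windows of this length (0.0396%) and in 0 of the 37 windows of the 33 Wnt genes matched. At so low a share, 0 of 37 cannot set these genes apart from others. The TCF/LEF core CTTTGAT or CTTTGAA occurs on either strand in 7.48% of all windows and in 3 of these 37, in Wnt5b, Wnt11 and Dkk1. The absence of a match concerns these letters in these windows only. There is no entry for Wnt10a, Rspo2, Rspo3, Notum or Dkk3.

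None of the 7 tested Frizzled receptors was called by edgeR, although 3 had an unadjusted p under 0.05, as had 2821 of all 14394 tested genes. Fzd5, the receptor gene with most counts, was at 34.8, 38.4 and 78.0 CPM in control and at 61.8, 33.7 and 17.2 CPM with 25(OH)D. The groups overlapped widely, with a log2 fold change of −0.42 ± 0.45 (edgeR adjusted p = 0.664). Without control replicate 3 the estimate was 0.046. Fzd1, singled out after its values were seen, had 2.64, 1.90 and 2.85 CPM in control and 12.8, 8.20 and 4.49 CPM with 25(OH)D. Its log2 fold change of 1.78 ± 0.54 missed the threshold in edgeR (adjusted p = 0.0669) and was called by DESeq2.

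The co-receptor genes were not called either. Lrp5, whose loss lowers bone mass, was at 11.3, 10.3 and 24.5 CPM in control and at 23.8, 21.9 and 7.40 CPM with 25(OH)D (log2 fold change 0.21 ± 0.52, edgeR adjusted p = 0.868). The order of its groups depended on single libraries, and the estimate was −0.046 without control replicate 2 and −0.059 without 25(OH)D replicate 1. Lrp6 was at 39.3, 33.9 and 34.5 CPM in control and at 46.0, 46.0 and 39.9 CPM with 25(OH)D. Its groups did not overlap, but the difference was small (0.29 ± 0.17, edgeR adjusted p = 0.393).

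The R-spondins moved in opposite directions. Rspo3 was at 0.719, 2.32 and 1.43 CPM in control (3, 11 and 6 counts) and at 17.7, 15.7 and 10.6 CPM with 25(OH)D (66, 65 and 40 counts). It rose 9.54-fold, a log2 fold change of 3.25 ± 0.48 (edgeR adjusted p = 0.000815), the smallest adjusted p of the 27 genes in this comparison. Rspo2 was at 10.3, 10.96 and 12.4 CPM in control (43, 52 and 52 counts) and at 2.41, 0.723 and 1.06 CPM with 25(OH)D (9, 3 and 4 counts). It fell by 2.99 ± 0.60 on the log2 scale, or 7.97-fold (edgeR adjusted p = 0.00698), and by 3.62 without 25(OH)D replicate 1. Neither gene's groups overlapped. In control Rspo2 had 147 counts and Rspo3 had 20, and with 25(OH)D they had 16 and 171. Rspo1 and Rspo4 summed to 6 and 2 counts over all 12 libraries.

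Of the genes that R-spondins act through, Rnf43 had most counts, at 10.8, 11.6 and 19.3 CPM in control and 10.2, 7.71 and 5.02 CPM with 25(OH)D. All 25(OH)D libraries were below all controls, yet the change missed the threshold (−0.86 ± 0.36, edgeR adjusted p = 0.207). Znrf3 and Lgr4 were not called, with log2 fold changes of 1.45 ± 0.65 and 0.11 ± 0.47.

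Among the inhibitors, Notum and Wif1 rose. Notum, a carboxylesterase that removes the lipid from Wnt ligands, was at 0.48, 2.74 and 5.71 CPM in control (2, 13 and 24 counts) and at 87.7, 47.7 and 8.19 CPM with 25(OH)D (328, 198 and 31 counts). The groups did not overlap, but the 25(OH)D libraries covered a wide range, and the lowest of them was near the highest control. The log2 fold change was 4.00 ± 1.03, or 15.9-fold (edgeR adjusted p = 0.0294). The call was lost without any 1 control library (adjusted p 0.118, 0.108 and 0.0509 without replicates 1, 2 and 3). It was also lost without 25(OH)D replicate 1 (0.100; log2 3.23) or 2 (0.0656), and the estimate was 4.83 without control replicate 3.

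Wif1, which encodes a secreted protein that binds Wnt ligands, had 100118 of the counts of these genes. It was at 1246, 1529 and 1502 CPM in control and at 2417, 2376 and 2009 CPM with 25(OH)D. It rose 1.59-fold, without overlap (log2 0.67 ± 0.14, edgeR adjusted p = 0.00893). The call was lost without control replicate 1 (adjusted p = 0.0548) and in a fit of these 2 groups alone (0.0680). The RefSeq window upstream of Wif1 (GRCm38.p6, plus strand, chr10:121033754-121034003) is shown beside those of the ligands because Wif1 rose as Wnt6 did.
Wif1: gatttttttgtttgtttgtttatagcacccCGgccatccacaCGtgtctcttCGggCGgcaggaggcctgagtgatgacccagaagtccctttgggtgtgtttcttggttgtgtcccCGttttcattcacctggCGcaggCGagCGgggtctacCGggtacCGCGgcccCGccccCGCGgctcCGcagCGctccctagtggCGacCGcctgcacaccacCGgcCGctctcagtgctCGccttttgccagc
It holds 21 CG dinucleotides (capitals) and 62.8% G and C, less than either ligand window, and neither of the motifs above.

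Dkk3, a Dickkopf relative that is not a typical Wnt antagonist, was at 37.9, 53.7 and 78.0 CPM in control and at 34.2, 33.7 and 22.2 CPM with 25(OH)D. All 25(OH)D libraries were below all controls, but the difference was not called (−0.91 ± 0.33, edgeR adjusted p = 0.134). Sost, the gene of sclerostin, was close to the limit of detection, with 10, 5 and 7 counts in control and 0, 5 and 2 with 25(OH)D (−1.47 ± 0.82, edgeR adjusted p = 0.367). Sfrp2 and Sostdc1 were not called. Dkk1, the classical LRP6 antagonist and a gene below the filter, had 0, 2 and 0 counts in control and 1, 0 and 1 with 25(OH)D, too few to compare. Axin2, a negative feedback gene widely used as a readout of beta-catenin activity, was at 5.04, 8.22 and 14.0 CPM in control and at 11.2, 5.06 and 3.17 CPM with 25(OH)D. Its groups overlapped (−0.49 ± 0.57, edgeR adjusted p = 0.695).

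**Figure D2:**
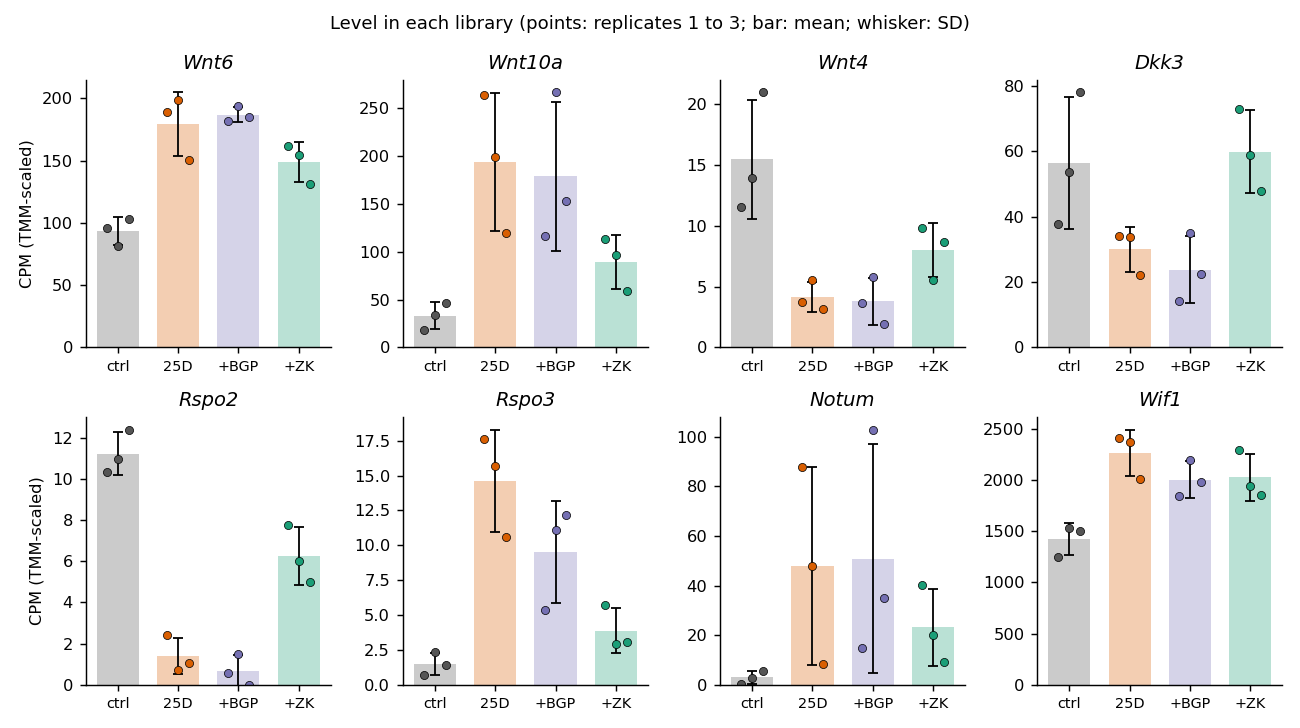
Level of the 8 called genes in each library (y axis, TMM-scaled CPM; points are replicates 1 to 3 from left to right, bars are means, whiskers are SD). Rspo2 and Rspo3 show opposite patterns over the groups, and the 25(OH)D libraries of Notum run from 8.19 to 87.7 CPM.

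The second comparison set 25(OH)D with 4 mM more BGP against 25(OH)D alone. No Wnt gene was called, and none of the 14394 genes tested with edgeR was (0%). DESeq2, run on all genes with counts, called none either. At an unadjusted p under 0.05 edgeR had 268 genes and DESeq2 346, among them 2 Wnt genes with either tool. In edgeR these were the receptor gene Fzd4 (−0.88 ± 0.35, adjusted p = 1.00) and the inhibitor gene Sostdc1 (−1.50 ± 0.54, adjusted p = 1.00). Fzd4 was at 8.83, 5.79 and 8.98 CPM with 25(OH)D and 3.09, 4.92 and 4.63 CPM with added BGP, and was the 1 Wnt gene without overlap, against 3.66% of all tested genes lower without overlap. Estimates over the 27 genes ran from −1.50 to 0.52, with a median of −0.12.

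The genes that 25(OH)D had changed were also read against control in the BGP group, a comparison that shares its control libraries with the first. Wnt10a was at 117, 266 and 153 CPM with BGP, 2.43 ± 0.42 above control on the log2 scale (edgeR adjusted p = 0.00255). Wnt6 was at 182, 194 and 185 CPM (1.00 ± 0.15, adjusted p = 0.000994). Wnt4 was at 3.65, 5.78 and 1.93 CPM (−2.03 ± 0.42, adjusted p = 0.00803). In all, 7 of 27 genes were called (25.9%, against 8.25% of all tested genes), 4 higher and 3 lower (3.9% and 4.35% of all).

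Rspo3 was at 5.33, 11.1 and 12.1 CPM with BGP, above every control library (2.65 ± 0.48, edgeR adjusted p = 0.00362). Rspo2 had 2, 7 and 0 counts with BGP (−3.99 ± 0.66, adjusted p = 0.00180). Its estimate was −5.39 without BGP replicate 2 and −3.34 without BGP replicate 3. Notum was at 14.9, 103 and 34.9 CPM (4.09 ± 1.03, adjusted p = 0.0272). Its call was lost without control replicate 1 (adjusted p = 0.106) or 2 (0.101) or BGP replicate 2 (0.118; log2 3.09), and the estimate was 4.93 without control replicate 3. Wif1 was at 1840.3, 2198 and 1979 CPM, and missed the threshold in edgeR (0.49 ± 0.14, adjusted p = 0.0502) but not in DESeq2 (0.0144).

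Dkk3, at 14.3, 34.9 and 22.4 CPM with BGP, was called lower than control (−1.24 ± 0.34, edgeR adjusted p = 0.0401). That call was lost without control replicate 2 (adjusted p = 0.0882) or 3 (0.119) or BGP replicate 1 (0.122) or 3 (0.138). Its difference from the group with 25(OH)D alone was not called.

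The third comparison set 25(OH)D with ZK191784 against 25(OH)D alone. Rspo3 fell and no other Wnt gene was called, so 1 of the 27 genes passed (3.70%), with 3.53% of all tested genes called (1.42% higher and 2.11% lower). At an unadjusted p under 0.05 there were 7, and 1643 of all 14394 tested genes. The median log2 fold change was 0.26 over the 27 genes and 0.02 over all. In 5 genes (Wnt4, Fzd8, Rspo2, Dkk3 and Sost) every ZK191784 library was above every 25(OH)D library, against 8.57% of all tested genes. For Wnt4 this rests on a tie, since replicate 2 of both groups had 23 counts. In 4 (Wnt10a, Fzd4, Lrp6 and Rspo3) every one was below, against 9.02%.

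Rspo3 was at 17.7, 15.7 and 10.6 CPM with 25(OH)D and at 5.73, 2.89 and 3.04 CPM with ZK191784 (28, 12 and 14 counts). It fell by 1.89 ± 0.43 on the log2 scale, or 3.72-fold (edgeR adjusted p = 0.0288). The call was lost without 25(OH)D replicate 1 or 2 (adjusted p 0.110 each) and without ZK191784 replicate 2 (0.158) or 3 (0.131). Rspo2 was at 7.78, 6.03 and 5.001 CPM with ZK191784 (38, 25 and 23 counts), above every 25(OH)D library and below every control library. Its difference from 25(OH)D was 2.16 ± 0.61, which missed the threshold in edgeR (adjusted p = 0.0860) and passed it in DESeq2 (0.00597).

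Wnt10a was at 113, 96.2 and 58.5 CPM with ZK191784, between the control and the 25(OH)D libraries (−1.12 ± 0.40 from 25(OH)D, edgeR adjusted p = 0.218). Wnt6, at 162, 155 and 131 CPM, overlapped the 25(OH)D group (−0.27 ± 0.15, adjusted p = 0.590). Wnt4 was at 9.83, 5.54 and 8.70 CPM (0.94 ± 0.42, adjusted p = 0.411). Notum was at 40.1, 20.0 and 9.35 CPM (−1.04 ± 0.85, adjusted p = 0.821), within the range of the 25(OH)D libraries. Wif1 was at 2289.8, 1945 and 1851 CPM (−0.16 ± 0.14, adjusted p = 0.846).

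Dkk3 was at 73.1, 58.8 and 47.8 CPM with ZK191784, and its difference of 0.99 ± 0.33 from 25(OH)D was not called (edgeR adjusted p = 0.174). Sost had 16, 8 and 10 counts with ZK191784, more than in any 25(OH)D library (2.01 ± 0.79, adjusted p = 0.293). Lrp6 was at 36.0, 33.7 and 32.6 CPM (−0.37 ± 0.17, adjusted p = 0.438) and Lrp5 at 20.9, 20.5 and 8.70 CPM (−0.09 ± 0.51, adjusted p = 0.987). Fzd5 was at 91.1, 54.0 and 56.7 CPM (0.84 ± 0.45, adjusted p = 0.552), Rnf43 at 14.7, 15.4 and 9.13 CPM (0.78 ± 0.36, adjusted p = 0.451), and Axin2 at 16.6, 12.8 and 6.09 CPM (0.87 ± 0.57, adjusted p = 0.700). None of these passed the test, and the replicates of Fzd5, Rnf43 and Axin2 overlapped with those of 25(OH)D.

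Set against control, the ZK191784 group had no called Wnt gene with edgeR, 7 at an unadjusted p under 0.05 (960 of all 14394), and 2 called higher with DESeq2, Wnt10a and Wnt6. Of all tested genes edgeR called 0.723% (0.507% higher and 0.215% lower). The lowest adjusted p was that of Wnt6 (0.67 ± 0.15 above control, edgeR adjusted p = 0.0781). Wnt10a was 1.43 ± 0.41 and Rspo3 1.36 ± 0.50 above control (adjusted p 0.221 and 0.501). Rspo2 and Wnt4 were 0.83 ± 0.51 and 0.94 ± 0.39 below it (0.963 and 0.650). All 3 comparisons with control share the same control libraries.

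**Figure D3:**
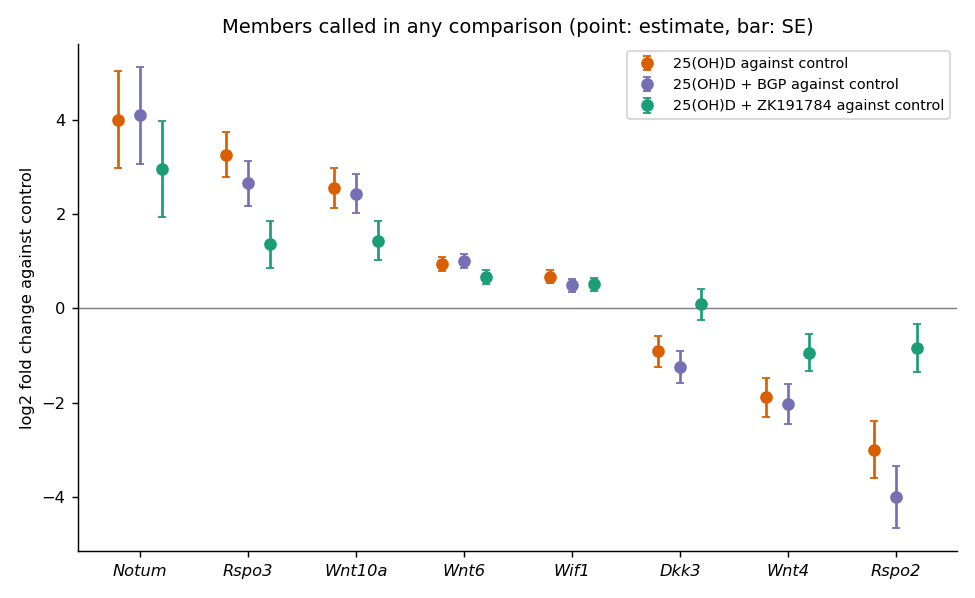
Log2 fold change against the same control libraries (y axis; points are estimates, bars are SE) for the 8 called genes in the 3 treated groups. The 25(OH)D and BGP estimates are furthest apart for Rspo2, at −2.99 and −3.99, and the ZK191784 estimates are nearer to 0 than those of 25(OH)D, as for Rspo3 at 1.36 against 3.25.

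The library ratio moved with many Wnt genes inside the groups. In a fit that added it as a covariate, 15 of the 27 genes rose with the ratio (55.6%, against 27.8% of all tested genes) and 1, Fzd3, fell (3.70%, against 23.6%). The genes that make up the ratio were not taken out of all tested genes, so part of those background shares is set by construction. Notum changed by 2.25 ± 0.20 log2 units per unit of the ratio (edgeR adjusted p = 2.13e-09), Axin2 by 1.26 ± 0.21 (5.79e-06), Lrp5 by 1.16 ± 0.17 (6.63e-07), Fzd5 by 1.04 ± 0.12 (4.44e-09) and Wnt10a by 0.89 ± 0.11 (3.72e-08). In 11 of the 27 the highest library of every group was the one with the highest ratio, Notum, Wnt10a, Fzd5, Lrp5, Axin2 and Rspo2 among them. That count was not taken over all tested genes, so it cannot be read as particular to Wnt genes. In the covariate fit the change with the ratio did not pass for Rspo2 (0.58 ± 0.33), Rspo3 (0.56 ± 0.26), Wnt4 (0.47 ± 0.24) and Wif1 (0.19 ± 0.08).

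**Figure D4:**
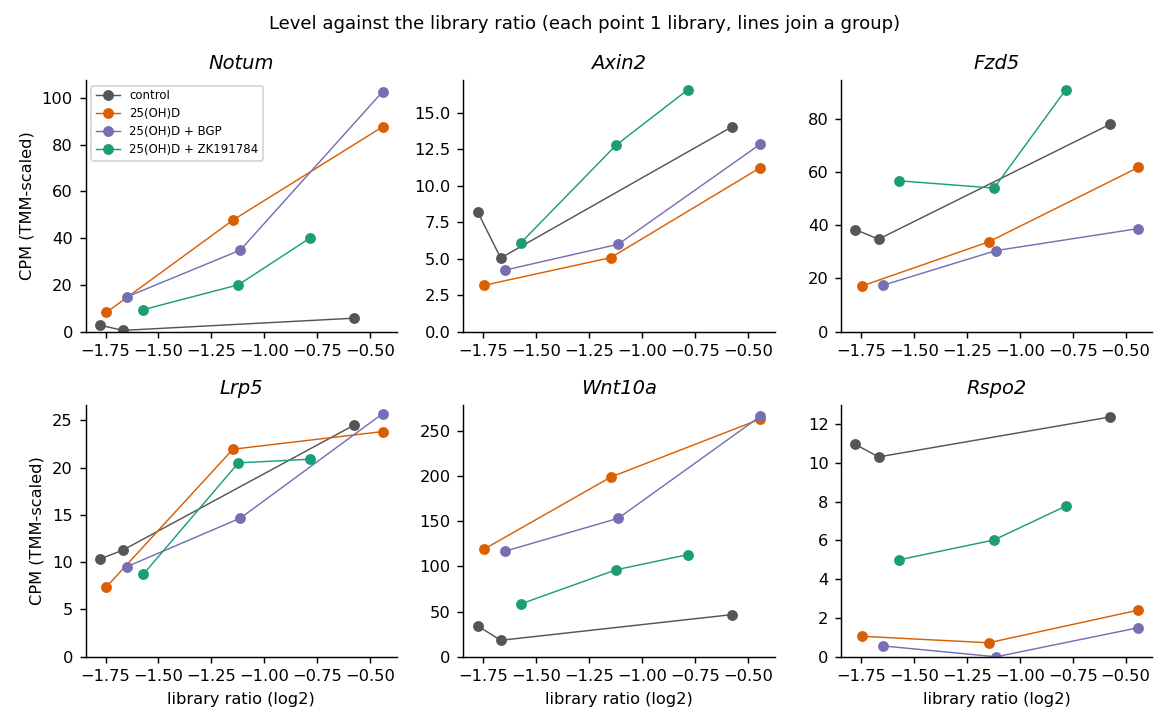
Level of 6 genes (y axis, TMM-scaled CPM) against the library ratio (x axis, log2); each point is 1 library and lines join the libraries of a group. Lrp5 rises along the ratio in every group with little distance between groups, whereas for Rspo2 the control, ZK191784 and 25(OH)D groups are separate at every ratio. The highest Rspo2 library of each group is also the one with the highest ratio.

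With the ratio as a covariate, 14 of the 27 genes were called between 25(OH)D and control (19.8% of all tested genes were), with 7 in each direction (10.1% of all higher and 9.69% lower). The 7 called without it were among them, in the same directions. The 7 added were Fzd1 (1.48) and Znrf3 (1.09), which were higher, and Dkk3 (−1.05), Rnf43 (−1.02), Fzd7 (−1.13), Axin2 (−0.85) and Fzd5 (−0.71), which were lower. Axin2 passed narrowly (edgeR adjusted p = 0.0439), and libraries were not left out in turn in the covariate fit. Between ZK191784 and 25(OH)D, 8 genes were called in that fit (11.4% of all tested genes were, 5.42% higher and 5.96% lower). Rspo2 (2.22), Dkk3 (1.03), Axin2 (1.02), Fzd5 (1.01) and Rnf43 (0.83) were higher, and Rspo3 (−1.86), Znrf3 (−1.11) and Wnt10a (−1.05) were lower. The covariate raised the number of calls over all genes as well, from 1250 to 2850 in the first comparison and from 508 to 1638 in the third.

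Of the 26 genes below the filter, totals over the 12 libraries ran from 0 (Dkk4) to 65 (Wnt11), with a median of 10.5. They were left out of the test described above, and intervals given here cover counting error only. Fzd9 had 3, 13 and 13 counts in control and 0, 1 and 1 with 25(OH)D, a ratio of summed counts per library size of 0.0775 (95% exact interval 0.00896 to 0.306). Fzd9 passed the filter and was called lower when control replicate 1, its lowest control library, was left out. It passed there only through control replicates 2 and 3, where it is high, so that call adds no support. The Frizzled-related inhibitor Sfrp1 had 7, 2 and 3 counts in control and 1, 0 and 0 with 25(OH)D (ratio 0.0936, 0.00219 to 0.633). Wnt9a had 1, 1 and 24 counts in control, so its total there came from replicate 3. Wnt2b had 1, 0 and 0 counts in control and 1, 3 and 6 with 25(OH)D. Wnt3 had 6, 7 and 4 counts with 25(OH)D and 0, 1 and 1 with ZK191784 (ratio 0.101, 0.0113 to 0.424). These genes were singled out after their counts were seen.

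The rest of the pathway was read from 6 lists of other Wnt genes (79 genes, 65 tested). The lists were chosen with earlier results of these data known, so the shares called here and below are descriptive only. Between 25(OH)D and control 9 were higher and 7 lower, or 24.6% of those tested, against 8.68% of all tested genes (4.76% higher and 3.93% lower). In the ratio covariate fit they were 13 and 15, against 10.1% and 9.69% of all. Of the 2 genes that ready ligands for secretion, Porcn, the acyltransferase that attaches their lipid, fell by 1.14 ± 0.25 on the log2 scale, from 27.6 ± 4.07 to 12.5 ± 0.888 CPM (edgeR adjusted p = 0.0110). The call was lost without 25(OH)D replicate 1 (0.0536). Wls, the carrier of Wnt ligands, did not pass (0.22 ± 0.29). Among 11 tested surface and secreted genes 4 rose and none fell, against 4.76% and 3.93% of all tested genes. The glypican gene Gpc4 rose most, from 7.90 ± 2.51 to 102 ± 27.5 CPM (3.70 ± 0.38, adjusted p = 5.35e-05). Gpc6 (1.68), the receptor gene Ror2 (0.97) and the Wnt inhibitor gene Apcdd1 (2.64) rose too. The Apcdd1 call was lost without control replicate 1 or 2 or 25(OH)D replicate 1 (adjusted p 0.0718, 0.0755 and 0.0778, the last with log2 1.94), and its estimate was 3.44 without control replicate 3.

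Among the 13 nuclear factors, Tcf7l1 and Tcf7l2, TCF family genes that can act as repressors when beta-catenin is low, rose. Tcf7l1 went from 175 ± 58.0 to 659 ± 174 CPM (1.91 ± 0.28, edgeR adjusted p = 0.000670). Tcf7l2 went from 50.9 ± 12.6 to 214 ± 49.3 CPM (2.07 ± 0.24, adjusted p = 0.000129). Ctnnbip1, whose product blocks the binding of beta-catenin to TCF factors, fell by 1.51 ± 0.21, from 132 ± 32.9 to 46.5 ± 7.43 CPM (adjusted p = 0.000557). Lef1 (−0.05 ± 0.34) and the beta-catenin gene Ctnnb1 (−0.34 ± 0.23) did not pass.

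Of 16 tested genes of the destruction complex and dishevelled, Csnk1e (0.82) and Csnk1a1 (0.48) rose and Tnks2 fell by 0.82, against 8.68% of all tested genes called. The Csnk1a1 call was lost without any 1 library (adjusted p 0.0503 to 0.146) and the Tnks2 call without 25(OH)D replicate 2 (0.0620). In the planar polarity and calcium branch 1 of 12 tested genes was called (8.33%, near the 8.68% of all tested genes). It was Prickle1, which rose from 47.4 ± 10.6 to 166 ± 25.3 CPM (1.80 ± 0.19, edgeR adjusted p = 5.69e-05).

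The list of Wnt target genes had 13 tested members. Between 25(OH)D and control 4 fell and none rose (3.93% and 4.76% of all tested genes did), with a median log2 fold change of −0.50 (−0.05 over all tested genes). Ccn4, a secreted matrix protein first described as a Wnt1-induced gene, fell by 2.15 ± 0.33, from 188 ± 50.8 to 42.4 ± 17.6 CPM (edgeR adjusted p = 0.00109). Tnfrsf11b (osteoprotegerin), Bmp4 and Cd44 fell by 2.28, 1.10 and 1.02. The summed osteoblast markers, though not Alpl, were lower in the same libraries, as given above, and their part in these falls was not tested.

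Between ZK191784 and 25(OH)D 9 of the 65 were called (13.8%, against 3.53% of all tested genes), 5 higher and 4 lower (1.42% and 2.11% of all). This comparison shares its 25(OH)D libraries with the first. Gpc4 was at 15.2 ± 3.26 CPM with ZK191784, lower than with 25(OH)D by 2.75 on the log2 scale (adjusted p = 0.000857 by edgeR). Tcf7l2 (90.1 ± 19.7 CPM, −1.25), Tcf7l1 (280.1 ± 55.7 CPM, −1.23) and Prickle1 (56.8 ± 6.19 CPM, −1.54) were lower as well. Ctnnbip1 (105 ± 19.1 CPM, 1.18), Porcn (25.8 ± 6.54 CPM, 1.04), Ccn4 (118 ± 25.6 CPM, 1.47), Tnfrsf11b (1.87) and Cd44 (0.84) were higher.

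The counts of calls in this comparison depended on single libraries. Higher calls numbered 1 to 4 and lower calls 2 to 5 when 1 library was left out. In the ratio covariate fit they numbered 10 and 11, against 5.42% and 5.96% of all tested genes in that fit. The Tnfrsf11b call was lost without any 1 of the 6 libraries (adjusted p 0.0711 to 0.153). The Porcn and Cd44 calls were lost without any library but ZK191784 replicate 3 (0.0839 to 0.171 and 0.0519 to 0.0991). The Ccn4 call was lost without 25(OH)D replicate 2 or 3 or ZK191784 replicate 1 or 2 (0.0779 to 0.116). That of Tcf7l1 was lost without 25(OH)D replicate 1 or 2 or ZK191784 replicate 2 or 3 (0.0980 to 0.118). That of Tcf7l2 was lost without ZK191784 replicate 2 (0.0574) or 3 (0.0541). Gpc4, Prickle1 and Ctnnbip1 passed with each library left out in turn. No other pathway gene was called between BGP and 25(OH)D by edgeR or DESeq2.

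**Figure D5:**
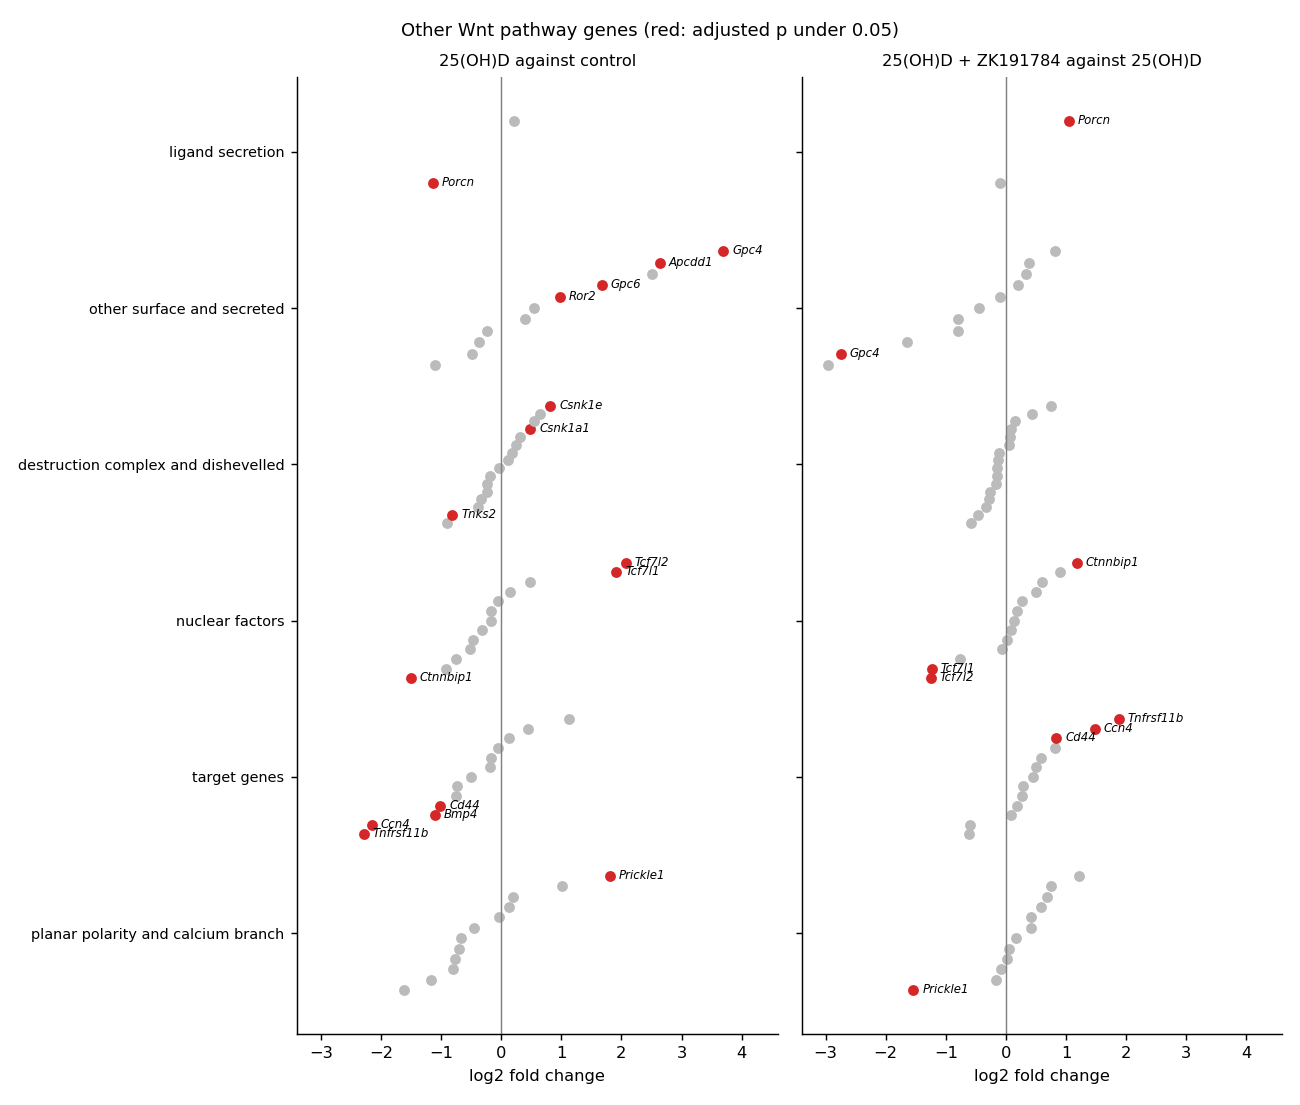
Log2 fold change (x axis) of the tested genes of 6 lists of other Wnt pathway genes, 25(OH)D against control on the left and ZK191784 with 25(OH)D against 25(OH)D on the right; each point is a gene, and red points were called. Gpc4 has the largest called change on both sides, 3.70 and −2.75.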

How the data were processed

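RNA was extracted with TRIzol and libraries were made with QuantSeq, per the labels' protocols. The authors deposited read counts by gene symbol. The submitters' processing notes name the genome mm39, STAR 2.7.9a, Subread 2.0.3 with its featureCounts, and DESeq2 1.38.2, whose role is not stated. Strand setting and annotation are not given in the sources used, so reads of overlapping or antisense genes may be mixed, and positions on mm39 are left out.

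Genes were kept by filterByExpr (min.count 10, min.total.count 15; 14394 genes) and scaled by TMM. A quasi-likelihood model was fitted to all 12 libraries without a block (edgeR 4.0.16, R 4.3.3). SEs are approximate, taken as the size of the log2 fold change over the root of its F statistic. CPM are TMM-scaled. There were 5 comparisons. Repeated symbols (882 entries) were kept apart. The steps were tested on simulated data.

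Named with values were all called genes, Sost, Dkk1, Lrp5, Lrp6, Axin2, and the gene with most counts in each role. Of the other pathway genes the called ones were named, up to 6 per list and comparison. The members, lists, tests and the library ratio were chosen with earlier results of these data known. The ratio set 89 ribosomal protein genes against 25845 genes that were ribosomal protein pseudogenes or Gm-numbered. Alternatives were RLE, DESeq2 1.42.0, no filter, a replicate block, a filter at 2 CPM in 3 libraries, the library ratio as covariate, the 2 groups fitted alone, and each library left out in turn. They were applied to the other pathway genes after the data had been seen. DESeq2 was run on all genes with counts and with its own filtering, not on the 14394 genes. Promoter windows came from RefSeq (GRCm38.p6). Figures were drawn with matplotlib 3.10.9.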

Additional observations from a re-analysis of the deposited data

How the results depend on the processing

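Directions of the called Wnt genes held under every alternative run, while counts of calls varied. With the ratio covariate, the genes called were 2850 (1250 without it) for 25(OH)D against control, 6 (0) for BGP against 25(OH)D, 1638 (508) for ZK191784 against 25(OH)D, 2680 (1187) for BGP against control and 671 (104) for ZK191784 against control. Wnt genes called lower were then 7 (2) for 25(OH)D against control, 3 (1) for ZK191784 against 25(OH)D, 7 (3) for BGP against control and 1 (0), Wnt4, for ZK191784 against control, and those called higher 5 (0) in each comparison of ZK191784. In fits of the 2 groups alone, 763, 712 and 42 genes were called for 25(OH)D, BGP and ZK191784 against control, and 1 Wnt gene, Dkk3, was higher with ZK191784 than with 25(OH)D. DESeq2 called 224 genes for ZK191784 against control, 2 Wnt genes among them (Wnt10a, Wnt6), and 1 higher Wnt gene, Rspo2, against 25(OH)D. Without a filter 220 genes were called for ZK191784 against control, with 2 Wnt genes higher (Wif1, Wnt6), and 2 higher (Dkk3, Rspo2) against 25(OH)D; Notum lost its call for 25(OH)D against control (adjusted p = 0.213) and for BGP against control (0.207).

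Same-numbered libraries did not go together in a steady way. With 3 libraries per group and the library ratio varying within groups, this cannot decide whether they were paired. Correlations of same-numbered deviations from the group means were −0.54, −0.07 and −0.72 for 25(OH)D and control and 0.57, 0.01 and 0.63 for ZK191784 and 25(OH)D, and in none of the 5 comparisons were all 3 over 0.1. With a replicate block 334 genes (508 without) and 0 lower Wnt genes (1 without) were called for ZK191784 against 25(OH)D, and 56 genes (104 without) for ZK191784 against control. Notum lost its calls under the block (adjusted p 0.0999 and 0.0698), as did Dkk3 for BGP against control (0.0781) and Rspo3 for ZK191784 against 25(OH)D (0.0900). Of the other pathway genes, the block ended the calls of Apcdd1 (0.0639) and Csnk1a1 (0.0613) for 25(OH)D against control and of Porcn (0.0914), Tcf7l1 (0.0798), Ccn4 (0.0694) and Tnfrsf11b (0.0922) for ZK191784 against 25(OH)D, where higher calls went from 5 to 2.

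Leaving out 1 library at a time gave 813 to 1266 called genes for 25(OH)D against control, with 3 to 6 Wnt genes higher (3 without control replicate 1) and 1 to 3 lower. It gave 269 to 428 for ZK191784 against 25(OH)D, with 0 to 1 Wnt genes lower, 794 to 1143 for BGP against control, with 3 to 5 higher and 2 to 4 lower, and 34 to 119 for ZK191784 against control, with 0 to 1 higher. Estimates near 0 changed sign. Lrp5 for 25(OH)D against control was −0.041 with the ratio covariate and ran from −0.059 (without 25(OH)D replicate 1) to 0.72 with 1 library left out. Lrp5 for ZK191784 against 25(OH)D was 0.0091 with the covariate and ran from −0.46 to 0.22. Fzd5 for 25(OH)D against control ran from −0.98 to 0.046 (without control replicate 3). Dkk3 for ZK191784 against control was −0.020 with the covariate and ran from −0.14 (without control replicate 1) to 0.41. The cause of these differences was not tested. RLE moved the median of all genes by at most 0.02. Depth limits Sost, Rspo2 and the 26 genes below the filter.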
